A study of Homo sapiens with 4 samples.

Results

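The integrin subunits described here are 10 genes of epithelial cells: the alpha subunits ITGA2, ITGA3, ITGA4, ITGA6 and ITGAV and the beta subunits ITGB1, ITGB4, ITGB5, ITGB6 and ITGB8. The members are all probe sets whose platform annotation names one of these genes, alone or among several, which gave 35 of the 54675 probe sets on the array. Of these, 31 named a member alone, and 4 named ITGB6 together with LINC02478, a long non-coding RNA gene. RNA was measured on Affymetrix arrays in cells of SW620, a line from a human colon cancer, with 2 arrays of a CD133+ clone (CPC1) and 2 arrays of a CD133- clone (CNC1). The labels state that bead sorting for the surface protein CD133 came first, that single sorted cells were then grown up as clones, and that these were sorted once more before RNA was taken. No agent was given, and all cells share the SW620 background and the culture medium. With 1 clone a group, effects of the clone and of CD133 status cannot be told apart. The labels do not say whether replicate arrays stem from separate cultures, so each p-value reflects no more than the array-to-array spread seen here, possibly technical. In this design the comparison asks which integrin transcripts differ between the clones.

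Integrins are receptors of the cell surface, each made of 1 alpha and 1 beta chain, that hold cells to matrix proteins and pass signals in both directions across the membrane. In gut epithelium ITGB1 pairs with many alpha chains, among them the collagen receptor chain ITGA2 and the laminin receptor chain ITGA3, while ITGA6 with ITGB4 binds laminin in hemidesmosomes, the anchoring junctions to the basement membrane. Among the beta chains described here, ITGAV pairs with ITGB1, ITGB5, ITGB6 or ITGB8. The ITGAV-ITGB6 dimer is found mostly on epithelial cells, where it binds fibronectin and the latent form of TGF-beta, which it can activate.

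The deposited log2 signals ran from 2.52 to 14.57, and array medians from 4.45 to 4.60. PROM1, the gene of CD133, had log2 signals of 8.46 and 8.73 on the CD133+ arrays, against 3.31 and 3.35 on the CD133- arrays, which matches the labels. Of 12 colon epithelial markers 11 lay above the level floor, a log2 signal of 3.75 that marks the lowest 20% of genes, and their summed signal was 15.31 on both CD133+ arrays, against 15.43 and 15.39 on the CD133- arrays (log2). The summed signals of the other cell types were lower over the 4 arrays. They lay between 8.58 and 8.70 for 9 fibroblast markers, 7.32 and 7.51 for 7 leukocyte markers, and 7.24 and 7.79 for 6 endothelial markers. Above the floor were all 9 fibroblast, 5 of the 7 leukocyte and 4 of the 6 endothelial markers. PTPRC and CDH5 were among those at or near the floor. Others lay well above it on all 4 arrays, such as COL1A1 (6.70 to 7.22), LYZ (6.18 to 6.68) and ENG (5.39 to 6.26). As a sign of RNA length, ACTB had 3' minus 5' log2 differences of 0.71 and 1.92 on the CD133+ arrays, against 1.18 and 0.92 on the CD133- arrays. For GAPDH they were 0.097 and 0.090 on the CD133+ arrays, against 0.017 and 0.026 on the CD133- arrays, so that CD133+ replicate 2 had the widest value for ACTB but not for GAPDH. Pairs of arrays from different clones differed by at least 2-fold in 431 to 2457 probe sets, and the widest pair was CD133+ replicate 2 with CD133- replicate 1. Replicates differed so in 416 probe sets for CD133+ and 364 for CD133-.

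Probe set 226535_at, which names both ITGB6 and LINC02478, was 8.25-fold lower in CD133+ cells. The 2 probe sets tied to an ITGB6 transcript were below the level floor with no call (-0.27 and -0.12), so the lower signal is that of the probe set, and was not shown to be that of ITGB6. Probe set 226535_at was the only 1 of the 35 member probe sets to pass a limma adjusted p under 0.05, with 0 members higher. ITGAV, the alpha partner of ITGB6, had a difference close to 2-fold in the same direction (1.96-fold lower), which did not pass over all probe sets but did pass in a fit with 1 probe set per gene. Over all probe sets tested 0.181% passed, and 0.132% passed with a lower signal in CD133+ cells. Of the 99 called probe sets 27.3% were higher in CD133+ cells, against 3 of 6 in the values as deposited. The arrays of the clones did not overlap in 19 of the 35 member probe sets, 13 of them lower in CD133+ cells, where 43.9% of all probe sets did not overlap. At an unadjusted p under 0.05 there were 6 member probe sets, 5 lower and 1 higher in CD133+ cells, against 12.7% of all probe sets. The median difference was -0.050 over the 35 and -0.17 over the 22 above the level floor, against 0.015 and 0.029 for all probe sets and for those above the floor.

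**Figure D1:**
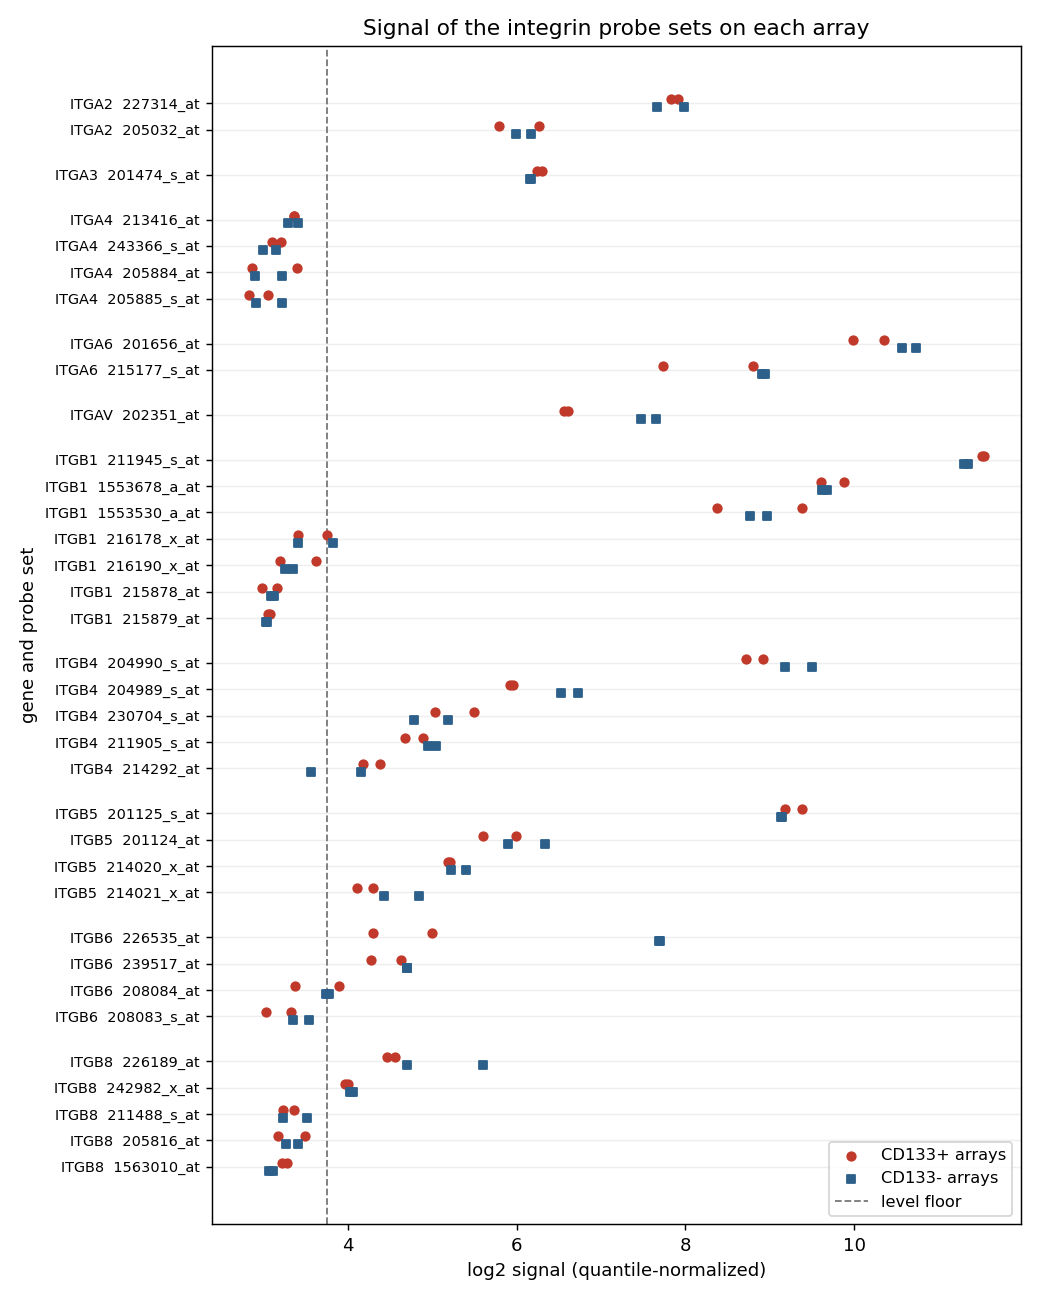
Quantile-normalized log2 signal of each of the 35 integrin probe sets on the 2 CD133+ arrays (circles) and the 2 CD133- arrays (squares), with the level floor of 3.75 as a dashed line. Probe set 226535_at (ITGB6 and LINC02478) lies at 5.0 and 4.29 on the CD133+ arrays, against 7.70 and 7.68 on the CD133- arrays, and all 4 ITGA4 probe sets lie below the floor.

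ITGB6 lies on chromosome 2 from 160099671 to 160200272 on the minus strand (GRCh38.p14), and LINC02478 lies on the same strand from 160257719 to 160271895, 57.4 kb upstream. The start-site regions of ITGB6 and of ITGAV are shown because probe sets that name these partner genes, 226535_at (with LINC02478) and 202351_at, had the largest differences among the members. Each runs from 250 bases before to 50 bases after the start of the gene, 5' to 3' on the gene's strand, from RefSeq (GRCh38.p14), with the bases from the start site onward in capitals. The windows are chr2:160200223-160200522 (minus strand) and chr2:186589806-186590105 (plus strand).
ITGB6: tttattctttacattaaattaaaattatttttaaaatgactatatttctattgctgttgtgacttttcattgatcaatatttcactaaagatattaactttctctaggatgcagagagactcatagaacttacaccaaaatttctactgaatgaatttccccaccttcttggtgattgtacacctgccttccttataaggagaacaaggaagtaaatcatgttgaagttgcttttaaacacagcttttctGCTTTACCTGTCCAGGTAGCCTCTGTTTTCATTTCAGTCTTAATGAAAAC
ITGAV: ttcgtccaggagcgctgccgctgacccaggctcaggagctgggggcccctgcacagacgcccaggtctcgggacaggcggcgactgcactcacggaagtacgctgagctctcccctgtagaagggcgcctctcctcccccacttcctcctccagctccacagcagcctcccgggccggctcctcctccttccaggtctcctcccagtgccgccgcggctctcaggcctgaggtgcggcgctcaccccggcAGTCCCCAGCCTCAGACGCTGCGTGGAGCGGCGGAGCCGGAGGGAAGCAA
GC content was 31.7% in the ITGB6 window and 70.7% in the ITGAV window, against a median of 58.7% over 35116 promoter windows. Neither window held, on either strand, GGGCGG (the GC box, in 45.0% of all windows), TATAAA (the TATA box, 11.5%), TGANTCA (the AP-1 site, 7.71%) or TGTGGT (the RUNX core, 13.1%). Of the 10 members 8 had a window in the table, 13 windows in all, and GGGCGG was found in 8 of the 13.

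Probe set 226535_at, which names ITGB6 and LINC02478, had log2 signals of 5.0 and 4.29 on the CD133+ arrays, against 7.70 and 7.68 on the CD133- arrays. Both CD133+ arrays were far below both CD133- arrays. The difference was -3.04 (SE 0.26, 95% interval -3.64 to -2.45, limma adjusted p = 0.0207), the third by size among all 54613 probe sets tested. In bulk RNA, fewer cells with the transcript and less transcript per cell cannot be told apart. The other 3 probe sets of this name pair were dim or barely separated. Probe set 239517_at had 4.27 and 4.63 on the CD133+ arrays, against 4.70 and 4.70 on the CD133- arrays, a difference of -0.25 (95% interval -0.75 to 0.25, limma adjusted p = 0.673). Probe set 208083_s_at had 3.33 and 3.02 on the CD133+ arrays, against 3.35 and 3.54 on the CD133- arrays. Probe set 208084_at had 3.89 and 3.37 on the CD133+ arrays, against 3.77 and 3.74 on the CD133- arrays. Both were below the floor on average, with differences of -0.27 (95% interval -0.61 to 0.071) and -0.12 (95% interval -0.58 to 0.34). All 4 differences were negative. The annotation ties 208083_s_at and 208084_at to an ITGB6 transcript and gives no accession for 226535_at, so which of the named genes that probe set reads was not tested. The call for 226535_at ended in the values as deposited (-3.09, limma adjusted p = 0.0513), without a variance trend (0.0895) and against a 1.5-fold change (0.0512), and it held when any single array was left out (limma adjusted p from 0.000172 to 0.0399).

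By a rule on distance between log2 profiles centred on their own mean over the 4 arrays, the 3 genes most like 226535_at among 19775 were CYTL1, a secreted cytokine-like protein, at a root mean square distance of 0.18, ITPR2, a calcium channel of the endoplasmic reticulum, at 0.41, and NNMT, nicotinamide N-methyltransferase, at 0.42. With 4 arrays in 2 clones, likeness here means mainly a difference between clones of similar size: -2.97 for CYTL1, -2.23 for ITPR2 and -3.06 for NNMT.

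ITGAV, the alpha chain that ITGB6 needs, has 1 probe set, 202351_at. Its log2 signals were 6.61 and 6.57 on the CD133+ arrays, against 7.65 and 7.48 on the CD133- arrays, so that the clones did not overlap and each pair of replicates lay close together. The difference was -0.97 (SE 0.17, 95% interval -1.37 to -0.58), with a limma adjusted p of 0.0817 over all probe sets, above the threshold. With 1 probe set per gene and adjustment over the 15820 genes above the level floor, a fit in which 3.74% of genes passed, the adjusted p was 0.0222. ITGB6 has no probe set of its own name in that fit. When it was entered through 226535_at, a choice made after seeing the data, the adjusted p was 0.00405.

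ITGB5 and ITGB8, which also pair with ITGAV, showed no call. ITGB5, which with ITGAV forms a vitronectin receptor, had 4 probe sets with differences from -0.43 to 0.14 and limma adjusted p from 0.467 to 0.854. Its brightest, 201125_s_at, had 9.18 and 9.38 on the CD133+ arrays, against 9.13 and 9.15 on the CD133- arrays, a difference of 0.14 (95% interval -0.16 to 0.43), while the other 3 probe sets of the gene were negative. ITGB8, whose dimer with ITGAV also binds latent TGF-beta, had 5 probe sets, 3 of them below the floor. Its brightest, 226189_at, had 4.55 and 4.47 on the CD133+ arrays, against 5.60 and 4.70 on the CD133- arrays. The groups did not overlap, but CD133- replicate 1 was 0.90 above its replicate, and the difference of -0.64 (95% interval -1.34 to 0.070) did not pass (limma adjusted p = 0.440). Leaving out CD133- replicate 1 gave -0.19, and leaving out CD133- replicate 2 gave -1.09. The other 4 ITGB8 probe sets were between -0.082 and 0.16, and the mean over the 5 was -0.13.

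The laminin-binding pair of hemidesmosomes had lower mean signals in CD133+ cells in its bright probe sets, and none passed. For ITGA6, probe set 201656_at had 9.99 and 10.36 on the CD133+ arrays, against 10.57 and 10.74 on the CD133- arrays, a difference of -0.48 (95% interval -0.80 to -0.16, limma adjusted p = 0.221). The second ITGA6 probe set, 215177_s_at, had 8.80 and 7.73 on the CD133+ arrays, against 8.94 and 8.91 on the CD133- arrays. Its difference of -0.66 (limma adjusted p = 0.418) rested on CD133+ replicate 2, which had the widest 3' minus 5' difference for ACTB but not for GAPDH: it was -0.13 without that array and -1.19 (limma adjusted p = 0.0136) without CD133+ replicate 1. For 201656_at the left-out array mattered the other way, with -0.66 (limma adjusted p = 0.0361) without CD133+ replicate 2 and -0.30 (0.334) without CD133+ replicate 1. The part of RNA length in these values was not tested.

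ITGB4, the beta chain with the long cytoplasmic tail that reaches the keratin filaments through plectin, had 5 probe sets that did not all point one way. The brightest, 204990_s_at, had 8.71 and 8.93 on the CD133+ arrays, against 9.18 and 9.50 on the CD133- arrays, a difference of -0.52 (95% interval -0.88 to -0.16, limma adjusted p = 0.235). Probe set 204989_s_at had 5.96 and 5.92 on the CD133+ arrays, against 6.53 and 6.72 on the CD133- arrays, a difference of -0.69 (95% interval -1.12 to -0.25, limma adjusted p = 0.207). In both the clones did not overlap. The dimmer probe sets 211905_s_at, 230704_s_at and 214292_at were at -0.21, 0.27 and 0.42 (limma adjusted p from 0.498 to 0.714), and the mean over the 5 was -0.14 (limma adjusted p = 0.687 in a fit to gene means).

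ITGB1, the common beta chain, had 7 probe sets, 3 of them above the floor. Probe set 211945_s_at had 11.54 and 11.51 on the CD133+ arrays, against 11.35 and 11.30 on the CD133- arrays, a difference of 0.20 (SE 0.074, 95% interval 0.029 to 0.37, limma adjusted p = 0.321). It was the only member with a positive difference at an unadjusted p under 0.05. Probe set 1553678_a_at was at 0.092 (95% interval -0.20 to 0.39). Probe set 1553530_a_at had 9.38 and 8.38 on the CD133+ arrays, against 8.77 and 8.96 on the CD133- arrays, so the CD133- values lay between those of the CD133+ replicates. This probe set and 215177_s_at of ITGA6 were the only 2 members whose CD133+ replicates differed by at least 2-fold, both lower on CD133+ replicate 2, and 0 members differed so between the CD133- replicates. The other 4 ITGB1 probe sets averaged below the floor, with differences from -0.036 to 0.10.

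Of the other alpha chains that pair with ITGB1, beside ITGA6 and ITGAV given above, ITGA2, ITGA3 and ITGA4 gave no call. ITGA2, of the collagen receptor, had 2 probe sets with overlapping groups: 227314_at had 7.92 and 7.83 on the CD133+ arrays, against 7.99 and 7.67 on the CD133- arrays, a difference of 0.044 (95% interval -0.35 to 0.44). For 205032_at the difference was -0.050 (95% interval -0.58 to 0.48). ITGA3, of the laminin receptor, had 6.30 and 6.25 on the CD133+ arrays, against 6.16 and 6.16 on the CD133- arrays, a difference of 0.11 (95% interval -0.31 to 0.54, limma adjusted p = 0.842). With centred arrays the differences of 227314_at and ITGA3 had a negative sign (-0.19 and -0.058). ITGA4, best known from leukocytes, was the only member gene with every probe set below the level floor. Its 4 probe sets ranged from 2.83 to 3.41 over the 4 arrays, overlapped between clones and differed by -0.12 to 0.076, at a signal where a difference in transcript could not be read.

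**Figure D2:**
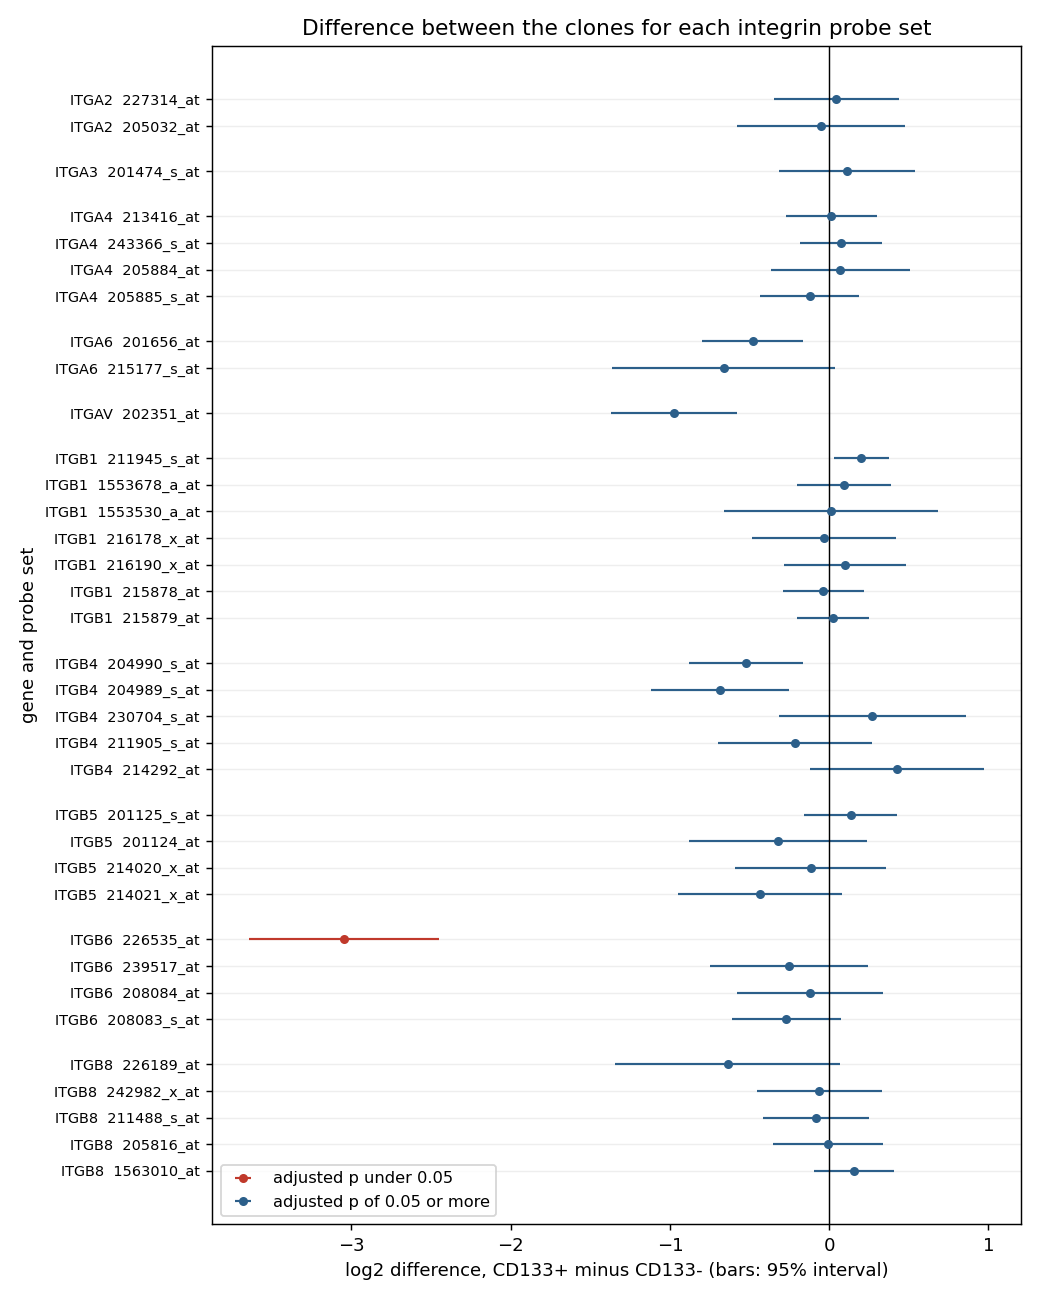
Log2 difference, CD133+ minus CD133-, of each integrin probe set with its 95% interval from limma. The interval of 226535_at (ITGB6 and LINC02478) runs from -3.64 to -2.45, that of 202351_at (ITGAV) from -1.37 to -0.58, and those of all but 6 probe sets cross 0.

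Of the 10 members, 4 lie on the long arm of chromosome 2 (ITGB6, ITGA6, ITGA4 and ITGAV), where most neighbouring genes were lower in CD133+ cells. Earlier work on these data had described a shifted stretch on this arm, so the values below restate it around the members. For each member the 10 nearest measured genes on either side in RefSeq order, members left out, were summarised by their brightest probe sets. The median difference of the 20 neighbours was -0.51 for ITGB6, -0.73 for ITGA6, -0.73 for ITGA4 and -0.58 for ITGAV, against 0.058 over all 15820 genes above the floor and -0.062 over the measured genes of chromosome 2. The windows of ITGA4 and ITGAV share 12 genes. Counted once, the 4 windows held 68 genes, of which 59 had negative differences and 36 passed in the fit with 1 probe set per gene, beside the 3.74% of all genes given above. Probe set 226535_at at -3.04 lay below all of its neighbours, the lowest of which was at -1.57. ITGAV at -0.97 lay inside the range of its neighbours (-1.47 to 0.32), and ITGA6 at -0.48 was closer to 0 than their median. How far the shift of the region carries the ITGAV, ITGA6 and 226535_at values was not tested.

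The neighbours of ITGA2 on chromosome 5 had a median of -0.38, with 15 of 20 negative, while the ITGA2 probe sets were near 0. The neighbours of ITGB8 on chromosome 7 had a median of 0.18, with 16 of 20 positive, while the ITGB8 probe sets ran from -0.64 to 0.16. Around ITGA3 and ITGB4 on chromosome 17, ITGB1 on chromosome 10 and ITGB5 on chromosome 3 the medians were 0.13, 0.058, -0.0026 and 0.0094.

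**Figure D3:**
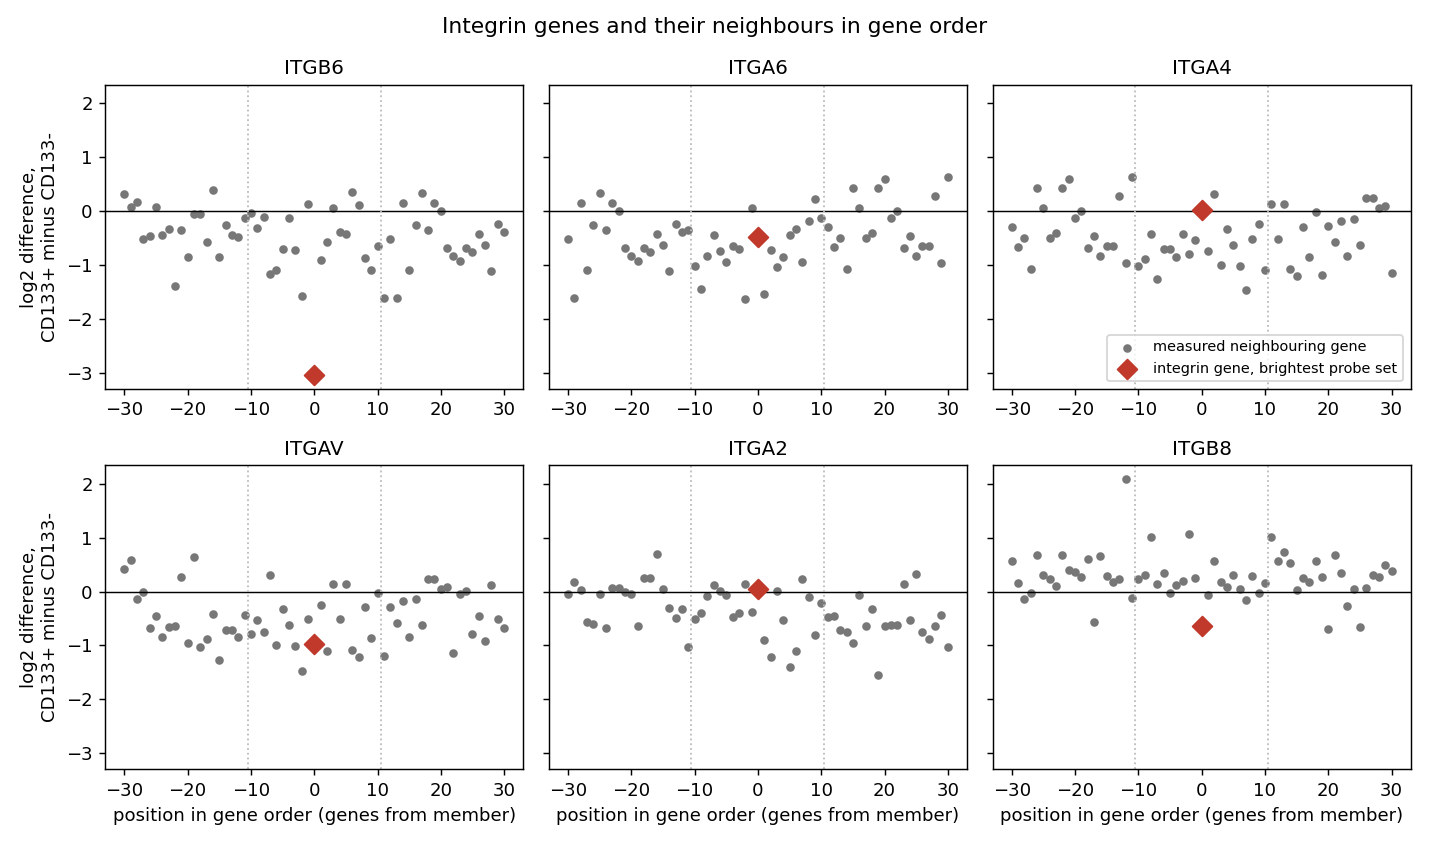
Log2 difference, CD133+ minus CD133-, of measured genes in RefSeq order around 6 integrin genes (grey points), with the brightest probe set of the integrin gene at position 0 (red diamond) and dotted lines at the 10 genes taken on each side. Around the 4 members of chromosome 2 most points lie below 0, and the point of 226535_at (ITGB6 and LINC02478) at -3.04 lies apart from them.

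Among genes that work with these subunits, 105 measured genes in 7 lists, 3 passed over all probe sets (2 higher and 1 lower in CD133+ cells), where 0.329% of 19775 genes did. In the fit with 1 probe set per gene 6 of 101 passed, 2 higher and 4 lower, where 3.74% of 15820 genes did. Ligands gave the largest differences. LAMB3, a chain of the hemidesmosome laminin, had 12.25 and 12.35 on the CD133+ arrays, against 10.90 and 10.89 on the CD133- arrays, a rise of 1.40 (SE 0.074, limma adjusted p = 0.00201). LAMB1, the beta chain of other basement membrane laminins, had 5.91 and 5.90 on the CD133+ arrays, against 7.54 and 7.59 on the CD133- arrays, a difference of -1.66 (SE 0.17, limma adjusted p = 0.0347). For both laminin chains the arrays of the clones did not overlap. Without a variance trend neither passed (limma adjusted p = 0.117 for LAMB3). LAMB1 did not pass without CD133- replicate 1 (limma adjusted p = 0.144) or without CD133- replicate 2 (0.0661), nor in the values as deposited (0.0742). Of the 20 measured ligands 1 rose, 1 fell and 18 did not pass, with a median of 0.093. Of the 4 measured hemidesmosome partners LAMB3, also counted among the ligands, rose and 0 fell. CD151, a tetraspanin that binds laminin-binding integrins, was at -0.62 (limma adjusted p = 0.104, and 0.0222 with 1 probe set per gene).

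RAC1, a GTPase that drives the spreading of cells on matrix, had 12.40 and 12.46 on the CD133+ arrays, against 11.89 and 11.88 on the CD133- arrays, a rise of 0.54 (SE 0.064, limma adjusted p = 0.0414). Over the mean of its 4 probe sets RAC1 was at 0.33 (limma adjusted p = 0.156 in a fit to gene means). It was the only 1 of 14 adhesion kinases and GTPases to pass, and it did not pass without CD133- replicate 1 (0.227) or CD133- replicate 2 (0.0879), in the values as deposited (0.0830) or with centred arrays (0.107). None of 24 cytoplasmic adaptors passed over all probe sets by limma. The lowest p was that of FERMT1, kindlin-1, an epithelial activator of integrins, with 10.06 and 9.96 on the CD133+ arrays, against 10.52 and 10.45 on the CD133- arrays, a difference of -0.48 (limma adjusted p = 0.115, and 0.0305 with 1 probe set per gene). In the fit to gene means FERMT1 was at -0.33 and did not pass (limma adjusted p = 0.208). None passed in limma among 16 membrane partners and traffic genes, where HAX1 had the lowest p (0.26, adjusted p = 0.264), or among 12 genes of latent TGF-beta and its receptors, where TGFBR3 had it (-0.40, adjusted p = 0.419). COL18A1, a basement membrane collagen named after its value was seen, was at -1.10 (limma adjusted p = 0.0799, and 0.0222 with 1 probe set per gene). In the fit to gene means COL18A1 was at -0.85 and did not pass (limma adjusted p = 0.0502).

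The 16 other integrin subunits, most of them chains of leukocytes, platelets or mesenchymal cells, gave no call in limma. Of these 14 had positive differences, under all 3 scalings, with a median of 0.25 against 0.047 for all genes by their brightest probe set. Of all 19775 genes 11404 were positive (11337 as deposited and 8800 with centred arrays). Not every probe set of the 16 genes had the sign of the brightest, which 3 of 7 had for ITGB3 and 1 of 3 for ITGB2. Over the mean of their probe sets ITGB3 was at 0.073 and ITGB2 at 0.0091, against 0.32 and 0.25 by the brightest. For ITGA11 the mean was larger (0.091 against 0.031). The median of 0.25 thus rests on the choice of the brightest probe set, and a median over gene means was not taken. The smallest p was that of ITGA8, with 6.0 and 6.01 on the CD133+ arrays, against 5.35 and 5.45 on the CD133- arrays, a difference of 0.61 (limma adjusted p = 0.263). Over the mean of its 4 probe sets ITGA8 was at 0.17 (limma adjusted p = 0.472 in a fit to gene means). With arrays centred on their medians the lists of cytoplasmic adaptors and of membrane partners had medians of -0.081 and -0.077, against 0.11 and 0.0051 after quantile normalization (-0.0020 and 0.0022 as deposited). Centring also moved the median of all genes to -0.035. The medians were 0.093 for ligands, 0.18 for hemidesmosome partners, 0.15 for kinases and GTPases and 0.16 for the TGF-beta list. With centred arrays these were 0.015, 0.038, 0.0013 and 0.038, all close to 0, and 10 of the 20 ligands were negative.

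**Figure D4:**
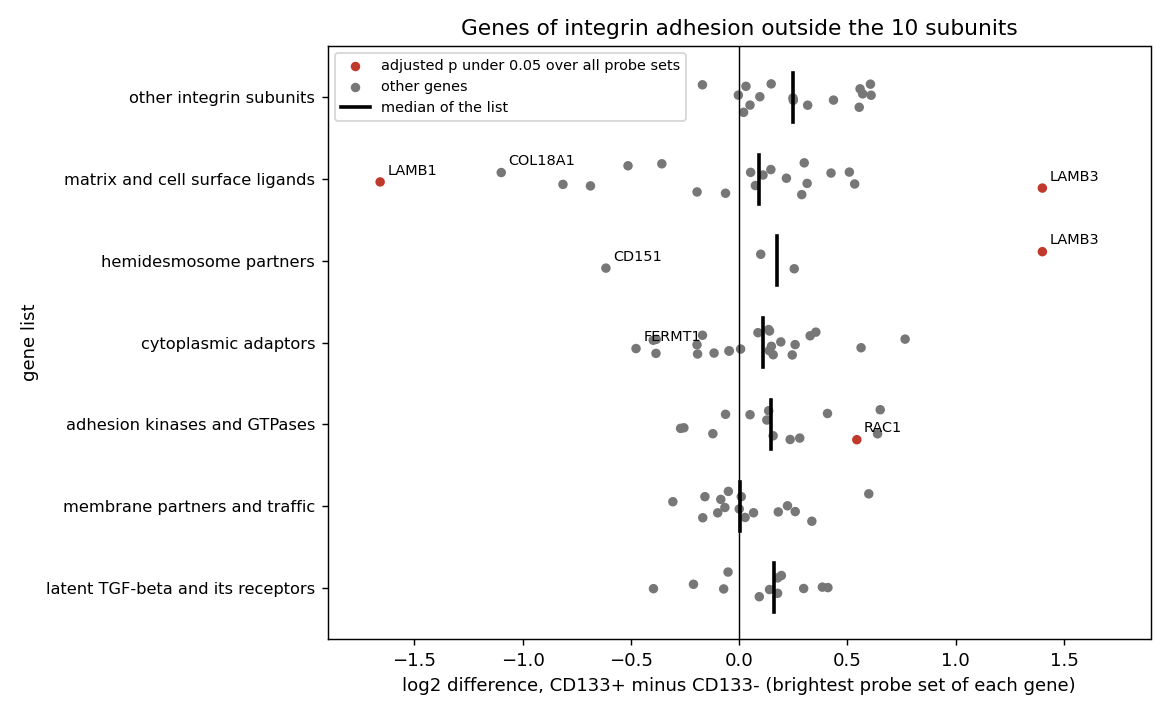
Log2 difference, CD133+ minus CD133-, of the genes in 7 lists of integrin adhesion, each gene by its brightest probe set, with the list median as a black bar. LAMB3 at 1.40, RAC1 at 0.54 and LAMB1 at -1.66 passed over all probe sets (red), and genes that passed in the fit with 1 probe set per gene are named.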

How the data were processed

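Per the values, the deposited table holds log2 probe-set signals, 1 per probe set and array. Per the submitters' processing notes Affymetrix Expression Console made them, and background correction, normalization and summarisation are not given in the sources used here. Array medians spread by 0.144, above a limit of 0.1, so the 4 arrays were quantile-normalized, which removes any overall shift between clones. The 62 control probe sets were left out. The remaining 54613 were fitted with limma 3.58.1 (R 4.3.3; lmFit, eBayes with trend), with Benjamini-Hochberg adjustment over all of them. A probe set was called at an adjusted p under 0.05. The script was tested on simulated data. An exact permutation test of 2 against 2 arrays cannot give a two-sided p below 0.333, so every call depends on limma's pooling of variances over probe sets (prior degrees of freedom 5.66), and the number of arrays limits precision (median SE 0.18).

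Names came from the platform annotation (41091 probe sets name 1 gene, 1801 several, 11721 are not listed) and RefSeq (GRCh38.p14). Named were all members, PROM1, up to 4 called genes per list or else the 1 with the smallest p, and the 3 genes most like the member with the smallest p. Members and lists were chosen, and neighbouring genes taken, with earlier results of these data known, among them shifted stretches on some chromosome arms. Alternatives changed scaling, level filter, variance model, gene summary, pairing, threshold and arrays. Tables and figures were made in Python 3.11.15.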

Additional observations from a re-analysis of the deposited data

How the results depend on the processing

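Of the 451 alternative values of the 35 integrin probe sets, 405 kept direction and side of the threshold, 9 passed only there, 4 lost the call (all of 226535_at) and 33 turned sign. Only other scalings, gene means and leaving out an array change the difference itself. Settings of threshold, level filter, variance model, pairing or brightest probe set leave it as it was, so no sign could turn there. The share that kept direction is therefore no measure of stability. The main counts were 99 probe sets, 1 member and 3 genes of the lists. They were 6, 0 and 1 at an adjusted p under 0.01, 6, 0 and 1 as deposited, 2, 0 and 0 without a variance trend, 7, 0 and 1 against a 1.5-fold change and 32 probe sets with centred arrays. Level filters gave 187 (20th percentile) and 336 (median) probe sets. With 1 probe set per gene 592 genes and 6 of the lists passed. With ITGB6 entered (an alternative chosen after seeing the data) 593 genes, 6 of the lists and 2 members did. The mean of probe sets gave 219 genes, 3 of the lists and 1 member. With the replicate block, where residual degrees of freedom fall to 1, they were 2409, 5 and 14, adding 201656_at, 202351_at, 204989_s_at and 204990_s_at. Same-numbered arrays deviated together (r = 0.40 across probe sets). With 2 pairs and no label that ties the numbers to a shared culture, whether these arrays share more than a number cannot be told. Without 1 array at a time they ran from 9 (CD133- replicate 1) to 520 (CD133+ replicate 1) probe sets, 1 to 2 members and 1 to 3 list genes. The causes were not tested. Quantile normalization, the 2 arrays per clone and the low signal of 13 members limit the precision.

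Signs turned in probe sets with small differences in the main fit, though some of the turned values were larger. With centred arrays they were -0.19 for 227314_at, -0.058 for 201474_s_at, -0.0032 for 213416_at, -0.045 for 1553678_a_at, -0.17 for 1553530_a_at, -0.017 for 215879_at and -0.0099 for 201125_s_at. As deposited they were -0.11 for 227314_at, -0.087 for 1553530_a_at, 0.048 for 216178_x_at, 0.0019 for 215878_at, 0.030 for 242982_x_at and 0.051 for 205816_at. Gene means gave -0.0028 for ITGA2 and -0.18 for ITGB5. Without 1 array the ranges were -0.12 to 0.20 for 227314_at, -0.29 to 0.19 for 205032_at, -0.046 to 0.075 for 213416_at, -0.20 to 0.34 for 205884_at, -0.27 to 0.029 for 205885_s_at, -0.047 to 0.23 for 1553678_a_at, -0.49 to 0.51 for 1553530_a_at, -0.24 to 0.17 for 216178_x_at, -0.11 to 0.32 for 216190_x_at, -0.12 to 0.050 for 215878_at, -0.38 to 0.14 for 208084_at, -0.22 to 0.060 for 211488_s_at and -0.17 to 0.16 for 205816_at. With 20 neighbours on each side the medians were -0.65 for ITGA4, -0.64 for ITGA6, -0.41 for ITGB6 and 0.25 for ITGB8, and as deposited -0.84 for ITGA6.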
